A study of Rattus norvegicus with 6 samples.

Results

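The nuclear genes for the subunits of the 5 oxidative phosphorylation complexes were described in RNA from the healing femur of ovariectomised rats. They were taken by name from the protein-coding rows outside the mitochondrial chromosome: the Ndufa, Ndufb, Ndufc, Ndufs and Ndufv genes for complex I, Sdha to Sdhd for complex II, the Uqcr genes and Cyc1 for complex III, the Cox4i, Cox5, Cox6, Cox7 and Cox8 genes for complex IV, and the Atp5 genes for complex V. The rule found 88 rows of 34538 genes, with 38 in complex I, 4 in complex II, 10 in complex III, 20 in complex IV and 16 in complex V. The rows carry 86 distinct names, because Cox6b1 and Uqcrb each have 2 rows. A test across all genes was possible for 82 of the 88 (36, 4, 10, 16 and 16 by complex).

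All animals were female Sprague Dawley rats, an outbred stock, in which osteoporosis had been induced by removing both ovaries at an age of 8 weeks. After 12 weeks the left femoral shaft was cut across and pinned with a 1.2 mm intramedullary nail. The Gel group received the gel alone around the fracture (3 libraries). The other group received MgPA-Gel (3 libraries), whose hydrogel is based, per the series title, on plant phosphate coordination compounds, and the labels do not spell out MgPA. Each library came from 1 cm of femur spanning the fracture, a mixture of bone, callus, marrow and whatever adjoining soft tissue was taken. The harvest time and the age at harvest are not given in the sources used here. No label says that the 3 samples of a group are 3 animals. The p-values therefore describe sample-to-sample spread, and this can be technical.

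Oxidative phosphorylation is carried out in the inner mitochondrial membrane. Complexes I and II feed electrons from NADH and succinate into ubiquinone, complex III passes them to cytochrome c, complex IV reduces oxygen, and complex V, the ATP synthase, uses the resulting proton gradient. Most subunits are encoded in the nucleus, and a small set is encoded on the mitochondrial chromosome. Complex IV has several subunits with a general form and a form restricted to heart and skeletal muscle, and skeletal muscle fibres are rich in mitochondria. Bone-resorbing osteoclasts are also known for a high mitochondrial content.

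Total counts ran from 13.6 to 18.2 M (mega) counts per library. The share of counts from the mitochondrial chromosome was 24.0% in Gel 1 and 25.9% in MgPA-Gel 1, and between 5.29% and 8.83% in the other 4. Muscle fibre genes, such as those of the sarcomere, summed to between 25.9 and 673 CPM (counts per M counts, with TMM-adjusted library sizes) in Gel. In MgPA-Gel they summed to 51202, 155 and 2055 CPM in libraries 1, 2 and 3. Osteoblast markers were present in every library, at 41608 to 108255 CPM in sum.

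Most nuclear subunit transcripts had a somewhat higher mean in MgPA-Gel than in Gel, and the MgPA-Gel group held both the highest and the lowest library. Within each group values are listed in the order of libraries 1, 2 and 3. The 88 genes together took 0.793%, 0.809% and 0.660% of the counts in Gel, against 1.26%, 0.605% and 0.969% in MgPA-Gel. Of the counts outside the mitochondrial chromosome they took 1.04%, 0.886% and 0.724% in Gel, against 1.70%, 0.638% and 1.03% in MgPA-Gel, and there Gel 1 was above Gel 2. MgPA-Gel 1 was the highest library and MgPA-Gel 2 the lowest, so the 3 Gel libraries lay between libraries of the other group. The summed level of the 88 genes was 11476, 9780.0 and 8522 FPKM in Gel, against 20868, 7625 and 11316 FPKM in MgPA-Gel (fragments per kilobase per M, the per-length scale the authors deposited), with means of 9926 ± 1482 and 13270 ± 6834 FPKM (SD, n = 3 each).

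No gene passed an adjusted p of 0.05 (edgeR quasi-likelihood test, two-sided, Benjamini-Hochberg), which is 0% of 14818 genes tested, and so none of the 82 subunits did. Their smallest adjusted p was 0.998, and DESeq2 called 0 of the 82 and 10 genes in all (0.0681% of 14693). One subunit, Cox6a2, had an unadjusted p under 0.05 in edgeR, against 2.63% of all genes tested. The groups did not overlap in 0 of the 82 subunits, against 6.88% of all genes. The mean was higher in MgPA-Gel in 76 of 82 subunits, against 54.8% of all genes tested, and lower in 6, against 45.2%. The subunits' log2 fold changes had a median of 0.37, against 0.033 over all genes. Without MgPA-Gel 1 the median was -0.046, with 23 subunits higher and 59 lower, and without MgPA-Gel 2 it was 0.60, with 78 higher and 4 lower. The directions of all genes in these fits are not given here. Without MgPA-Gel 2, edgeR called 0 of the 82, against 0.0131% of all genes, and 24 had an unadjusted p under 0.05, against 4.93% of all genes. MgPA-Gel 2 was the lowest library in 63 of the 82, so leaving it out raises the MgPA-Gel mean of those subunits. The 24 share the same libraries and are not independent results.

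Most members shared the libraries at both ends of the order. MgPA-Gel 1 was the highest library in 72 of the 82 subunits (87.8%), against 27.0% of all genes tested. MgPA-Gel 2 was the lowest in 63 (76.8%), against 19.3% of all genes, and Gel 3 was the lowest in 14. Both held at once with respect to the Gel group, MgPA-Gel 1 above and MgPA-Gel 2 below all 3 Gel libraries, in 59 subunits (72.0%) against 10.8% of all genes. MgPA-Gel 3 exceeded all 3 Gel libraries in 31 subunits (37.8%), against 24.0% of all genes. In bulk tissue, a different number of mitochondria-rich cells and a different amount of these transcripts per cell cannot be told apart.

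**Figure D1:**
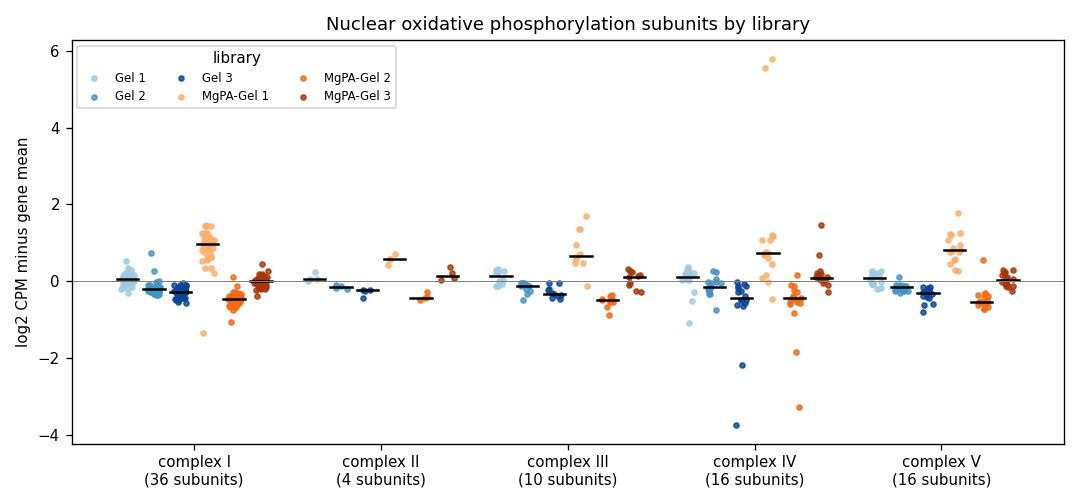
Each point is 1 of the 82 tested subunits in 1 library, as its log2 CPM minus that gene's mean over the 6 libraries, grouped by complex, and each bar is the median of a library. In all 5 complexes MgPA-Gel 1 has the highest median (0.58 to 0.97) and MgPA-Gel 2 the lowest (-0.42 to -0.52), with the 3 Gel libraries and MgPA-Gel 3 between them. In complex IV Gel 3 is nearly level with MgPA-Gel 2 (-0.435 and -0.437), and they are the lowest library for 6 and 8 of 16 subunits.

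The size of the step in MgPA-Gel 1 differed between members. Set against the median of the other 5 libraries, its CPM was 2.0-fold higher for the median subunit, with 68 of 82 above 1.5-fold, 41 above 2-fold and 3 below 1-fold. The largest ratios belonged to Cox6a2 (101-fold) and Cox8b (99.1-fold), the muscle forms of complex IV subunits. They were followed at a distance by Atp5me (4.26-fold), a membrane subunit of the ATP synthase, and the chromosome 7 row of Uqcrb (3.89-fold), a small subunit of complex III. The smallest were those of Ndufa4l2 (0.365-fold), Cox4i2 (0.666-fold) and Uqcrc2 (0.937-fold).

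Complex I oxidises NADH, and its nuclear subunits comprise a catalytic core, which carries the flavin and the iron-sulphur clusters, and a larger number of accessory subunits. Of 36 tested, 34 had a higher mean in MgPA-Gel and 2 a lower one (Ndufa4l2 and Ndufa10), and the median of the log2 fold changes was 0.43. Ndufs1, the core subunit with the most iron-sulphur clusters, lay at 90.2, 68.2 and 63.0 CPM in Gel, against 98.4, 62.3 and 87.9 CPM in MgPA-Gel. Gel 1, MgPA-Gel 1 and MgPA-Gel 3 were high for this gene, the groups overlapped, and the log2 fold change was 0.17 ± 0.23 (SE). Ndufv1, which binds NADH and flavin, lay at 111, 91.0 and 91.5 CPM in Gel, against 148, 73.8 and 104 CPM in MgPA-Gel. MgPA-Gel 1 was the highest library and MgPA-Gel 2 the lowest (log2 fold change 0.15 ± 0.27).

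Among accessory subunits of complex I, Ndufa13, also known as GRIM-19, had one of the highest levels per length (157 FPKM over the 6 libraries). Its values were 69.9, 61.5 and 66.4 CPM in Gel, against 126, 54.1 and 66.9 CPM in MgPA-Gel, and MgPA-Gel 1 was well above 5 libraries that lay close together. Ndufa8, a twin-cysteine subunit on the intermembrane side, had the smallest unadjusted p in the complex (0.105, edgeR quasi-likelihood test) and lay at 44.8, 46.7 and 41.0 CPM in Gel, against 78.4, 46.4 and 52.4 CPM in MgPA-Gel. All but MgPA-Gel 1 fell within 41.0 to 52.4 CPM, and the log2 fold change was 0.42 ± 0.22.

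Ndufa4 carries a complex I name and is counted there by the rule, although it is now regarded as a subunit associated with complex IV. It lay at 109, 101 and 88.6 CPM in Gel, against 249, 85.8 and 144 CPM in MgPA-Gel, with means of 99.5 ± 10.3 and 159 ± 82.7 CPM (SD, n = 3 each) and a log2 fold change of 0.68 ± 0.37. MgPA-Gel 1 and MgPA-Gel 3 were above all Gel libraries and MgPA-Gel 2 was below them. Its relative Ndufa4l2, a hypoxia-induced form, ran the other way, at 43.9, 51.1 and 28.2 CPM in Gel, against 12.1, 33.1 and 32.5 CPM in MgPA-Gel (log2 fold change -0.67 ± 0.42). MgPA-Gel 1 held the lowest value, MgPA-Gel 2 and 3 lay within the Gel range, and the groups overlapped. On the per-length scale the log2 ratio of Ndufa4l2 to Ndufa4 was -4.63 in MgPA-Gel 1 and between -2.41 and -1.24 in the other 5 libraries. Hif1a, the hypoxia-inducible transcription factor, lay at 249, 457 and 208 CPM in Gel, against 201, 791 and 447 CPM in MgPA-Gel, with MgPA-Gel 2 highest and MgPA-Gel 1 lowest. A link between the Hif1a and Ndufa4l2 transcripts was not tested.

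Complex II is succinate dehydrogenase, the member shared with the citrate cycle and the only complex with no subunit on the mitochondrial chromosome. Its 4 subunits had log2 fold changes within 0.25 to 0.30, all positive, and MgPA-Gel 1 was the highest library for each. Sdha, the flavoprotein that oxidises succinate, lay at 126, 118 and 108 CPM in Gel, against 169, 90.4 and 162 CPM in MgPA-Gel. For this subunit MgPA-Gel 3 was nearly as high as MgPA-Gel 1, and MgPA-Gel 2 was the lowest library. Sdhb, the iron-sulphur subunit, lay at 104, 86.6 and 84.6 CPM in Gel, against 149.6, 74.5 and 115 CPM in MgPA-Gel (means 91.9 ± 10.8 and 113 ± 37.6 CPM, SD, n = 3 each). Sdhc, a membrane anchor that helps bind ubiquinone, lay at 131, 111 and 107 CPM in Gel, against 188, 104 and 133 CPM in MgPA-Gel. Both had MgPA-Gel 1 on top and MgPA-Gel 2 at the bottom, and the groups overlapped (log2 fold changes 0.30 ± 0.27 and 0.28 ± 0.24).

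Complex III had 9 of 10 rows with a higher mean in MgPA-Gel, and their log2 fold changes had a median of 0.33. The redox subunits differed little in mean (log2 fold changes 0.091 ± 0.30 for Uqcrfs1 and 0.23 ± 0.34 for Cyc1). Uqcrfs1, the Rieske iron-sulphur protein, lay at 164, 129 and 105 CPM in Gel, against 186, 91.4 and 146 CPM in MgPA-Gel. Cyc1, the haem-bearing cytochrome c1, lay at 141, 110.4 and 96.0 CPM in Gel, against 187, 75.5 and 145 CPM in MgPA-Gel. In both, Gel 1, MgPA-Gel 1 and MgPA-Gel 3 were the 3 highest libraries. The structural core subunit Uqcrc1 lay at 179.5, 131 and 132 CPM in Gel, against 209.6, 111 and 169.6 CPM in MgPA-Gel. Its partner Uqcrc2 lay at 108, 84.7 and 84.1 CPM in Gel, against 79.4, 68.0 and 102 CPM in MgPA-Gel. The pair parted in MgPA-Gel 1, which was the highest library for Uqcrc1 and lay below all Gel libraries for Uqcrc2 (log2 fold changes over the groups 0.15 ± 0.27 and -0.15 ± 0.21).

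Of the small accessory subunits of complex III, Uqcr11 had one of the larger steps. It lay at 95.4, 82.5 and 83.9 CPM in Gel, against 268, 73.3 and 97.5 CPM in MgPA-Gel, so that MgPA-Gel 1 stood at 3.20-fold the median of the others (log2 fold change 0.75 ± 0.48). Uqcrh, the acidic hinge protein that helps cytochrome c dock, lay at 139, 112 and 89.9 CPM in Gel, against 175, 80.7 and 125 CPM in MgPA-Gel. Uqcr10 lay at 26.1, 23.9 and 19.1 CPM in Gel, against 42.4, 18.9 and 32.6 CPM in MgPA-Gel. In the 3 of them MgPA-Gel 1 was highest and MgPA-Gel 2 lowest, and the groups overlapped. Uqcr11 and Uqcrh were also the most abundant complex III transcripts per length (230.3 and 220.2 FPKM over the 6 libraries).

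Complex IV, cytochrome c oxidase, showed the widest spread among its members. Of 16 tested, 13 had a higher and 3 a lower mean in MgPA-Gel, and the log2 fold changes ran from -0.095 to 5.24 with a median of 0.26. Cox4i1, the regulatory subunit used in most tissues and the most abundant complex IV transcript per length (478 FPKM), lay at 385, 332 and 258 CPM in Gel, against 542, 228 and 348 CPM in MgPA-Gel. Gel 1 was second to MgPA-Gel 1, the groups overlapped, and the log2 fold change was 0.20 ± 0.34. Cox5a, which joins the catalytic core early in assembly, lay at 110.2, 76.8 and 75.0 CPM in Gel, against 156, 62.8 and 94.1 CPM in MgPA-Gel. Cox5b, which carries a zinc ion, lay at 85.4, 53.0 and 61.3 CPM in Gel, against 149, 37.3 and 54.4 CPM in MgPA-Gel. The log2 fold change was 0.26 ± 0.35 for Cox5a and 0.27 ± 0.51 for Cox5b, with Gel 1 and MgPA-Gel 1 the 2 highest libraries in each. Cox6c, a small membrane subunit, lay at 155, 135 and 97.2 CPM in Gel, against 323, 114 and 164 CPM in MgPA-Gel (log2 fold change 0.63 ± 0.40). Cox7b, another membrane subunit, lay at 85.0, 68.9 and 58.6 CPM in Gel, against 191, 54.6 and 87.5 CPM in MgPA-Gel (log2 fold change 0.65 ± 0.45), and in both MgPA-Gel 1 and 3 exceeded all Gel libraries.

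Cox6b1, which links the complex IV dimer, was read from a spliced row on chromosome 1 (131, 109.9 and 76.2 CPM in Gel, against 187, 86.4 and 119 CPM in MgPA-Gel) and from a short row on chromosome 2 (18.6, 13.1 and 10.6 CPM in Gel, against 22.7, 12.3 and 15.4 CPM in MgPA-Gel). The 2 rows name the same protein, so how the authors' counting divided their reads is uncertain. They ordered the libraries alike at the top, with MgPA-Gel 1 first and Gel 1 second. Cox6b2, its testis form, was low at 1.92, 3.35 and 2.71 CPM in Gel, against 3.13, 2.59 and 3.10 CPM in MgPA-Gel, and no library stood apart.

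Of the 3 pairs of muscle and general forms in complex IV, 2 divided sharply by library. Coordinates are printed as the authors' table lists them, without a named build. Cox6a2, the muscle form of subunit VIa (chromosome 1, 199624037 to 199624783), lay at 2.88, 4.85 and 0.366 CPM in Gel, against 291, 1.64 and 17.1 CPM in MgPA-Gel. Cox8b, the muscle form of subunit VIII in rodents (chromosome 1, 213648787 to 213650247), lay at 2.19, 1.56 and 0.513 CPM in Gel, against 155, 0.189 and 4.39 CPM in MgPA-Gel. For both, MgPA-Gel 1 was the highest library and MgPA-Gel 3 came next, while MgPA-Gel 2 lay within or below the Gel range, so the groups overlapped. MgPA-Gel 1 and 3 were also the libraries with the most muscle fibre transcripts, at 51202 and 2055 CPM in sum, and the part of muscle content in these values was not tested. The log2 fold change was 5.24 ± 1.98 for Cox6a2 (unadjusted p 0.0382, adjusted p 0.998, edgeR quasi-likelihood test with Benjamini-Hochberg adjustment). It was 5.21 ± 2.15 for Cox8b (unadjusted p 0.0520, same test). The general partners had no step of that size. Cox6a1 lay at 217, 193 and 190.0 CPM in Gel, against 195, 168 and 229 CPM in MgPA-Gel (log2 fold change -0.018 ± 0.18). Cox8a lay at 162, 126 and 117 CPM in Gel, against 193, 97.1 and 169 CPM in MgPA-Gel (log2 fold change 0.18 ± 0.29), and in both the groups overlapped.

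Measured per length, Cox6a2 lay at 6.11, 10.2 and 0.771 FPKM in Gel, against 614, 3.43 and 36.2 FPKM in MgPA-Gel. Cox6a1 lay at 398, 351 and 346 FPKM in Gel, against 356, 303 and 419.6 FPKM in MgPA-Gel on the same scale. The muscle form therefore made up 63.3% of this pair in MgPA-Gel 1 and 7.95% in MgPA-Gel 3, against 0.222% to 2.83% in the other 4 libraries. Cox8b lay at 6.93, 4.89 and 1.61 FPKM in Gel, against 486, 0.589 and 13.8 FPKM in MgPA-Gel. Cox8a lay at 329, 254 and 237 FPKM in Gel, against 391, 195 and 342 FPKM in MgPA-Gel. The muscle share of this pair was 55.4% in MgPA-Gel 1 and 3.88% in MgPA-Gel 3. It was 0.302% to 2.06% in the others. The mean log2 ratio of muscle to general form was 3.57 higher in MgPA-Gel for Cox6a (exact two-sided permutation test, p = 0.3, adjusted over the 3 pairs 0.9). It was 1.93 higher for Cox8 (exact p = 0.7, adjusted 1), and without MgPA-Gel 1 it was -0.33. A design of 3 against 3 cannot give an exact p below 0.1.

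In the third pair the row of the muscle form was at or near 0 in every library. Cox7a1, the muscle form of subunit VIIa (chromosome 1, 91071493 to 91074294), had 0, 0 and 7 counts in Gel and 0, 1 and 3 in MgPA-Gel, and did not pass the filter on low counts. Another row that names this protein, LOC687508 (chromosome 1, 88620317 to 88621868), had 1 count in MgPA-Gel 1 and 0 in the other libraries. Whether the Cox7a1 row of the annotation covers the transcript that muscle makes was not tested, so its values describe the row and not the isoform. For the row, a count of 0 allows up to 0.188 CPM in MgPA-Gel 1, the library in which Cox6a2 reached 291 CPM (3 counts of the library, for counting error only). Cox7a2, the general form, lay at 89.8, 90.5 and 56.6 CPM in Gel, against 145, 63.2 and 99.0 CPM in MgPA-Gel (log2 fold change 0.37 ± 0.34). Its relative Cox7a2l, which takes part in joining respiratory supercomplexes, lay at 186, 160.2 and 149.7 CPM in Gel, against 171, 149 and 156 CPM in MgPA-Gel (log2 fold change -0.057 ± 0.16). The log2 ratio of Cox7a1 to Cox7a2 differed by -0.017 between the groups (exact p = 1, n = 3 each), rests on at most 7 counts in a library and carries the same limit.

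**Figure D2:**
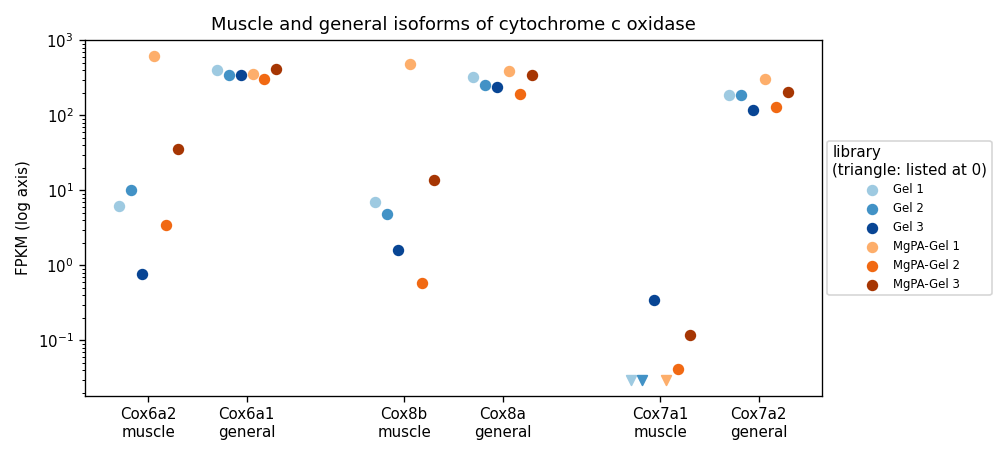
Level of the muscle and general forms of 3 complex IV subunits in each of the 6 libraries, in FPKM on a log axis, with triangles for libraries in which a gene is listed at 0. Cox6a2 and Cox8b reach 614 and 486 FPKM in MgPA-Gel 1 and stay at or below 36.2 FPKM elsewhere, while their general partners vary from 195 to 420 FPKM and the row of Cox7a1 is at or below 0.343 FPKM.

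The 250 bases before the start of these isoform genes, from RefSeq with build GRCr8, are shown because these isoforms divide by library and are known for their tissue-restricted use. Capitals mark matches of CAGCTG (an E-box letter set bound by MyoD, a muscle factor), GGGCGG (SP1, a general factor) and CCGGAAG (ETS factors including GABP, known regulators of respiratory genes), each read on both strands.
Cox6a2 (chr1:192219717-192219966, minus strand): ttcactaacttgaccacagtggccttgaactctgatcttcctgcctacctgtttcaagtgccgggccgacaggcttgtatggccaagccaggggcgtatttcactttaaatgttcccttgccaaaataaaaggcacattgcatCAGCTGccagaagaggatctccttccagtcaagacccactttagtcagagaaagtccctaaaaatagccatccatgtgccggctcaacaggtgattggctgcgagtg
Cox8b (chr1:205408274-205408523, minus strand): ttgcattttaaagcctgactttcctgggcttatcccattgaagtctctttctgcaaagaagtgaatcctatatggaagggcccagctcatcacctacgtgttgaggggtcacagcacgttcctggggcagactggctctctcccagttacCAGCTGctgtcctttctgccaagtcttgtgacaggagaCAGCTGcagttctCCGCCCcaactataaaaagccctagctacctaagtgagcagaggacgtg
Cox8a (chr1:213833624-213833873, minus strand): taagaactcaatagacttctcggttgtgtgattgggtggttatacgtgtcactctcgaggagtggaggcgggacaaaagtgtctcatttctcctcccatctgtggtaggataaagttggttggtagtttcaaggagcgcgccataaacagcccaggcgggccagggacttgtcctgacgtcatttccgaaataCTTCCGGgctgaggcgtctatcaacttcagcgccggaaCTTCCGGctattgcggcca
Cox7a2 (chr8:89601150-89601399, minus strand): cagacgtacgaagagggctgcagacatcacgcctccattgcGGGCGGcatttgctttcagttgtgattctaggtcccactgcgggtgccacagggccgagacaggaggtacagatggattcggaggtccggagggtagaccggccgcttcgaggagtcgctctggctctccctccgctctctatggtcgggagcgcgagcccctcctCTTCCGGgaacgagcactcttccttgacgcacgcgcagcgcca
Cox4i1 (chr19:65630133-65630382, plus strand): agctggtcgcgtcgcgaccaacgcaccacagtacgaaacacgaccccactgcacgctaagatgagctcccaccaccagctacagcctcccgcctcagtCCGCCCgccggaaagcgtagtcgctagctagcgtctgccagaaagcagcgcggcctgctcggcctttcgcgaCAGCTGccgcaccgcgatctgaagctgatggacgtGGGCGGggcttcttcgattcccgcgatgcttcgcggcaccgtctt
CAGCTG begins 107 bases before the start of Cox6a2 and 100 and 62 bases before that of Cox8b. It is not particular to the muscle forms that stepped: it also begins 80 bases before the start of the general form Cox4i1. Cox7a1 holds it in its first 50 bases and has none of the searched motifs in the 250 bases before its start, which are not shown. Cox6a1 was not matched. Of the other motifs, Cox8b holds the reverse of GGGCGG 49 bases before its start. Cox4i1 holds GGGCGG at 45 bases and its reverse at 152 bases before its start, and has a CCGGAAG match that is not wholly within the 250 bases shown. Cox8a and Cox7a2 hold CCGGAAG on the reverse strand, at 57 and 19 bases before the start of Cox8a and 43 bases before that of Cox7a2, which also has GGGCGG at 209 bases. CAGCTG is common: it occurred in 15.1% of all 27457 promoter windows, so a match is a description of the letters and not a site.

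Across the subunits, 73 of the 86 names had a promoter window of 300 bases (250 before and 50 after the start). CCGGAAG occurred in 20 of the 73 (27.4%), against 9.22% of all windows and 16.7% of those of other tested genes. AAGATGGCG, bound by YY1, occurred in 9 (12.3%), against 1.93% and 3.55%. GCGCATGCG, bound by NRF1, a regulator of respiratory chain genes, occurred in 6 (8.22%), against 1.66% and 3.13%. At least 1 of these 3 occurred in 29 of the 73 (39.7%), against 12.0% of all windows and 21.6% of other tested genes. AAGGTCA, bound by the oestrogen-related receptors, occurred in 10 (13.7%), against 4.37% and 2.80%. GGGCGG occurred in 31 (42.5%), against 34.9% of all windows and 61.8% of other tested genes. CAGCTG was found in 12 (16.4%), against 16.2% of other tested genes, and TATTTATA, bound by MEF2 factors of muscle, in 1 (1.37%), against 0.851%. Both strands were searched. The first motif ends in the letters AAG with which the YY1 and oestrogen-related receptor motifs begin, so matches can overlap.

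Complex V, the ATP synthase, had a higher mean in MgPA-Gel for all 16 tested subunits, and the median of the log2 fold changes was 0.41. Without MgPA-Gel 1 this median was -0.054. Atp5f1b, the catalytic beta subunit and one of the most abundant members (516 FPKM), lay at 1004, 772 and 679 CPM in Gel, against 1324, 611 and 1087 CPM in MgPA-Gel (log2 fold change 0.30 ± 0.33). Atp5f1a, the alpha subunit, lay at 513, 422 and 408 CPM in Gel, against 558, 338 and 561 CPM in MgPA-Gel (log2 fold change 0.12 ± 0.26). MgPA-Gel 3 was as high as MgPA-Gel 1 for the alpha subunit, and Gel 1 exceeded the other Gel libraries for both.

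Some small subunits of the ATP synthase had a larger step in MgPA-Gel 1 than the alpha and beta subunits (1.32-fold and 1.71-fold the median of the other libraries), and others, such as Atp5mc2 (1.48-fold) and Atp5mf (1.87-fold), had one of similar size. Atp5f1e, the epsilon subunit of the central stalk, had the highest mean level of all members per length over the 6 libraries (553 FPKM). That mean was raised by MgPA-Gel 1 (1202 FPKM). In Gel 1, MgPA-Gel 2 and MgPA-Gel 3, Atp5f1b was higher (571, 342 and 616 FPKM, against 482, 311 and 474 FPKM for Atp5f1e). Atp5f1e lay at 179, 169 and 149 CPM in Gel, against 450.1, 117 and 177 CPM in MgPA-Gel (log2 fold change 0.58 ± 0.48). Atp5md, also known as DAPIT, lay at 59.5, 62.8 and 45.1 CPM in Gel, against 161, 44.8 and 80.4 CPM in MgPA-Gel (log2 fold change 0.77 ± 0.45, unadjusted p 0.130, edgeR quasi-likelihood test). Atp5me, subunit e of the membrane part, lay at 36.3, 27.3 and 21.8 CPM in Gel, against 116, 20.6 and 28.1 CPM in MgPA-Gel (log2 fold change 0.95 ± 0.67). MgPA-Gel 1 stood at 2.67-fold, 2.71-fold and 4.26-fold the median of the other libraries for these genes, and MgPA-Gel 2 lay below all Gel libraries in each. Atp5if1, the inhibitor that binds the synthase when the proton gradient collapses, lay at 84.3, 59.6 and 56.9 CPM in Gel, against 119, 55.5 and 65.1 CPM in MgPA-Gel (log2 fold change 0.25 ± 0.32). Gel 1 and MgPA-Gel 1 were the 2 highest libraries for the inhibitor.

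The c-ring of the membrane rotor is built from 1 protein encoded by 3 genes that differ in their import sequence. Atp5mc1 lay at 65.6, 55.7 and 52.5 CPM in Gel, against 154, 40.6 and 71.2 CPM in MgPA-Gel (log2 fold change 0.61 ± 0.46). Atp5mc2 lay at 250.4, 200.4 and 197 CPM in Gel, against 297, 166 and 211 CPM in MgPA-Gel (log2 fold change 0.054 ± 0.25). Atp5mc3 lay at 208, 147 and 129 CPM in Gel, against 309, 118 and 197 CPM in MgPA-Gel (log2 fold change 0.36 ± 0.37). Per length Atp5mc2 was the most abundant of the 3 (341 FPKM over the 6 libraries, against 255 for Atp5mc3 and 131 for Atp5mc1). The log2 ratio of Atp5mc1 to Atp5mc2 was -0.74 in MgPA-Gel 1 and between -1.82 and -1.36 in the others. For Atp5mc3 to Atp5mc2 no single library stood apart: the ratio reached -0.11, -0.27 and -0.43 in MgPA-Gel 1, MgPA-Gel 3 and Gel 1, and lay between -0.77 and -0.62 in the other 3.

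A minority of members did not have MgPA-Gel 1 as their highest library. These 10 were Ndufa10, Ndufa4l2, Ndufb6, Uqcrc2, Cox4i2, Cox6a1, Cox6b2, Cox7a2l, Atp5f1a and Atp5pb. Cox4i2, the form of subunit IV known for its induction by low oxygen, lay at 15.6, 17.3 and 12.97 CPM in Gel, against 10.6, 16.5 and 15.9 CPM in MgPA-Gel (log2 fold change -0.095 ± 0.24). MgPA-Gel 1 was its lowest library. The log2 ratio of Cox4i2 to Cox4i1 per length was -6.21 in MgPA-Gel 1 and between -5.16 and -4.32 in the other 5 libraries. Ndufa10, an accessory subunit of the membrane arm, lay at 88.5, 65.7 and 65.5 CPM in Gel, against 80.1, 48.4 and 76.6 CPM in MgPA-Gel (log2 fold change -0.10 ± 0.24), with Gel 1 highest.

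The step in MgPA-Gel 1 was larger for short transcripts. Among members of up to 500 bases the median log2 ratio of MgPA-Gel 1 to the median of the others was 1.36 (n = 23), and in other genes of that length it was 0.34 (n = 584). Over 500 and up to 1000 bases it was 1.08 (n = 33) against 0.20 (n = 1316). Over 1000 and up to 2000 bases it was 0.75 (n = 21) against 0.075 (n = 4277), and above 2000 bases 0.53 (n = 5) against -0.093 (n = 8559). In every length class the subunits lay above other genes, and in both sets the value was lower in longer classes. Over the 82 members Spearman's rho of this ratio with length was -0.45 in MgPA-Gel 1, and between -0.08 and 0.17 when each other library was set against the rest. Over all 14818 genes rho was -0.16 in MgPA-Gel 1, and between -0.11 (Gel 1) and 0.14 (MgPA-Gel 2) in the other libraries. These are correlations across genes that share the same 6 libraries, given as a description. The labels give no measure of RNA quality, and the part of length in the step was not tested.

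**Figure D3:**
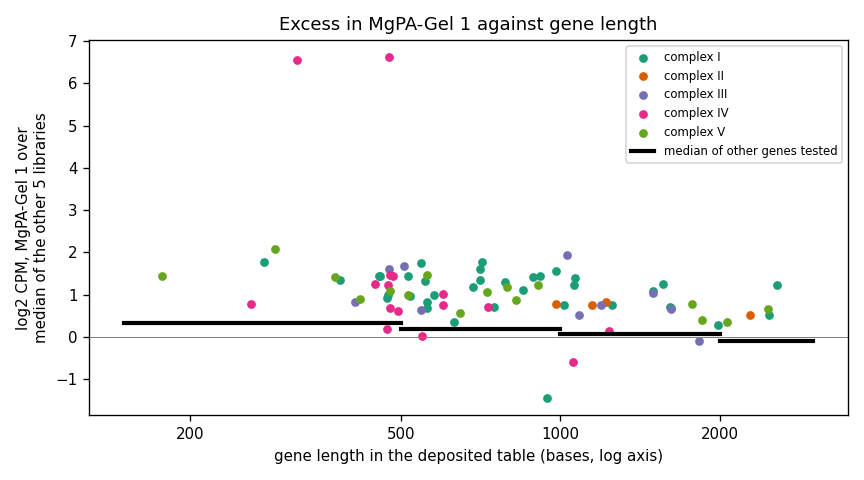
Log2 ratio of the CPM in MgPA-Gel 1 to the median of the other 5 libraries for the 82 tested subunits, against gene length in bases on a log axis, coloured by complex, with black bars for the median of other tested genes in the same length class. Cox6a2 and Cox8b lie far above the rest, all members but Ndufa4l2, Cox4i2 and Uqcrc2 lie above 0, and shorter members tend to lie higher than longer ones, as the medians of other genes also do (0.34 to -0.093).

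Some members have near-identical loci elsewhere in the table, and how the authors' counting divided reads between such loci is uncertain. Of the subunits, 34 share their named protein with another row of the table, and 21 of those 47 other rows had any count. Rows outside the 88 held over 10% of the counts for 3 proteins, and the second rows of Uqcrb and Cox6b1, which are members themselves, are not counted here. Atp5pb, a stator subunit of the ATP synthase (chromosome 2, 208566385 to 208577146), had 26, 35 and 14 counts in Gel and 37, 44 and 29 in MgPA-Gel. Its copy LOC100911417 (chromosome 2, 208408890 to 208420163) had 37, 20 and 602 counts in Gel and 661, 75 and 22 in MgPA-Gel, which is 88.5% of the counts of the protein. Gel 3 and MgPA-Gel 1 were high for the copy and the other 4 libraries were low, so the step did not follow the groups.

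Ndufa1, a small complex I subunit (chromosome X, 124513269 to 124516705), had 7, 507 and 2 counts in Gel and 6, 9 and 5 in MgPA-Gel, and did not pass the filter on low counts. Its copy LOC108348144 (chromosome X, 123803103 to 123806777) had 4, 4 and 13 counts in Gel and 7, 5 and 266 in MgPA-Gel. Summed, the protein lay at 0.754, 29.5 and 1.10 CPM in Gel and 0.813, 0.883 and 15.9 CPM in MgPA-Gel. Gel 2 and MgPA-Gel 3 thus held nearly all of its counts, each at a different locus. Summing the rows did not even out the libraries for either protein: Atp5pb with its copy lay at 4.32, 3.18 and 45.1 CPM in Gel and 43.6, 7.51 and 2.98 CPM in MgPA-Gel. The source of these differences was not tested. Cox5a had 16.4% of its protein's counts in 1 pseudogene row. These 3 cases were picked after their values were seen, and the median log2 fold change of the members with copies summed was 0.36.

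Besides Ndufa1 and Cox7a1, the members without a test were Ndufa10l1, Cox7b2 and Cox6c-ps1, with 0 counts in all 6 libraries, and Cox8c, with 2 counts in MgPA-Gel 2 alone. Cox7b2 and Cox8c are known as testis forms. A count of 0 allows up to 0.173 to 0.220 CPM, depending on the library.

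The products of the 13 subunit genes of the mitochondrial chromosome join these nuclear products in complexes I, III, IV and V. In summed CPM both sets had MgPA-Gel 1 first, Gel 1 second and MgPA-Gel 2 last, while Gel 3 and MgPA-Gel 3 traded places. The excess of Gel 1 over the other Gel libraries was larger for the mitochondrial genes. Their summed level was 257871, 77037 and 86178 CPM in Gel, against 279861, 50062 and 54439.7 CPM in MgPA-Gel. Gel 1 and MgPA-Gel 1 were high together and the groups overlapped. The nuclear subunits summed to 8825, 7367 and 6590.0 CPM in Gel, against 14331, 5877 and 8737 CPM in MgPA-Gel. In Gel 1 the mitochondrial genes stood at a median log2 ratio of 1.70 over the median of the other libraries and the nuclear subunits at 0.25. In MgPA-Gel 1 the values were 1.80 and 1.00. The mean of the mitochondrial genes was higher in MgPA-Gel for 3 and lower for 10 of 13 (median of the log2 fold changes -0.13). By edgeR 0 of the 13 were called and 0 had an unadjusted p under 0.05.

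**Figure D4:**
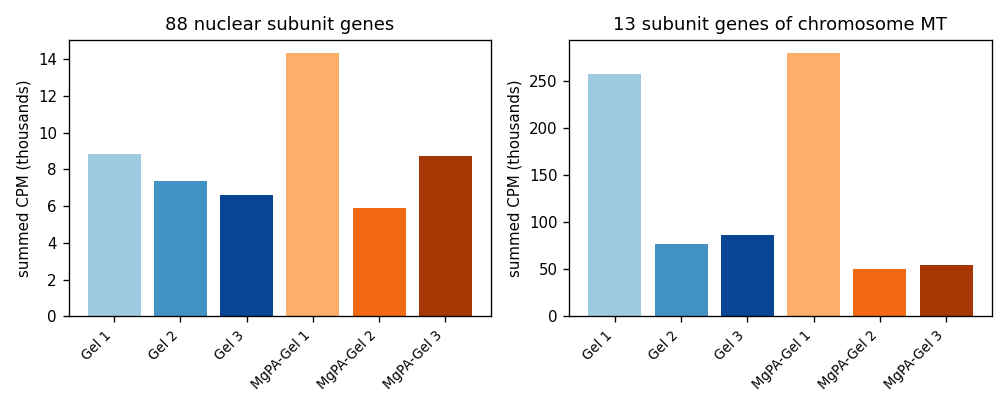
Summed CPM (axis in units of 1000 CPM) of the 88 nuclear subunit genes (left) and of the 13 subunit genes of the mitochondrial chromosome (right) in each library, on axes from 0. Gel 1 is high on the right (257871 CPM) and stands near the other Gel libraries on the left (8825 CPM), while MgPA-Gel 1 is highest in both (14331 and 279861 CPM).

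Other nuclear gene lists of the pathway had smaller median steps in MgPA-Gel 1 than the subunits, and edgeR called none of their genes. Single genes stepped further, among them Ckmt2, Slc25a4 and the copper chaperone Cox17, with log2 ratios of 8.34, 2.11 and 1.72 in MgPA-Gel 1 over the others. Assembly factors, which build the complexes without staying in them, had a higher mean in MgPA-Gel for 33 of 41 tested and a lower one for 8 (median log2 fold change 0.13). Their median log2 ratio in MgPA-Gel 1 over the other libraries was 0.46, against 1.00 for the subunits. Of 13 citrate cycle enzymes 12 had a higher and 1 a lower mean (median 0.17, and 0.61 in MgPA-Gel 1 over the others). A list of cytochrome c, the carriers of the inner and outer membrane and mitochondrial creatine kinase had 7 higher and 2 lower of 9 tested (median 0.32, and 0.92 in MgPA-Gel 1). By complex, the subunits of II, III and IV had smaller steps in MgPA-Gel 1 than this list (0.77, 0.80 and 0.78). Those of I and V had larger ones (1.21 and 1.04). Ckmt2, the creatine kinase of muscle mitochondria, is also in the muscle fibre list. Without it, a choice made after its values were seen, 6 were higher and 2 lower of 8 (median 0.21, and 0.67 in MgPA-Gel 1). Cycs, cytochrome c itself, lay at 120.4, 119 and 101 CPM in Gel, against 224, 101 and 145 CPM in MgPA-Gel, and MgPA-Gel 1 was the highest library.

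The adenine nucleotide carriers, which export ATP, also divided in MgPA-Gel 1. Slc25a4, the form prominent in muscle and heart, lay at 349.8, 285 and 293 CPM in Gel, against 1264, 219 and 322 CPM in MgPA-Gel. Slc25a5, the form of most proliferating cells, lay at 379.8, 276 and 231 CPM in Gel, against 202, 201 and 363 CPM in MgPA-Gel. Per length the log2 ratio of Slc25a4 to Slc25a5 was 2.88 in MgPA-Gel 1 and between 0.061 and 0.58 in the other 5 libraries. Transcriptional regulators of mitochondrial genes that could be tested had no shared step: 9 of 12 had a higher mean and 3 a lower one, and their median log2 ratio in MgPA-Gel 1 was 0.089. Among those too low to test, Esrrg lay at 3.31 CPM in MgPA-Gel 1 and 0.137 to 0.293 CPM in the other libraries. Ppargc1a lay at 1.88 CPM in MgPA-Gel 1 and 0 to 0.694 CPM in the others, and Esrrb at 0 CPM in MgPA-Gel 1. Esrra, the oestrogen-related receptor alpha, lay at 67.8, 63.1 and 50.8 CPM in Gel, against 70.6, 63.6 and 84.6 CPM in MgPA-Gel. Tfam, which packages mitochondrial DNA, lay at 27.7, 27.0 and 29.5 CPM in Gel, against 39.4, 21.1 and 29.1 CPM in MgPA-Gel.

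Markers of several cell types also varied between the libraries. The muscle fibre list had all 24 tested genes higher in mean in MgPA-Gel, against 54.8% of all genes (median log2 fold change 5.63). Of them 10 had an unadjusted p under 0.05, against 2.63% of all genes, and 0 were called by edgeR. The list summed to 673, 431 and 25.9 CPM in Gel, against 51202, 155 and 2055 CPM in MgPA-Gel. MgPA-Gel 1 and MgPA-Gel 3, the libraries with the most Cox6a2, had the most of it, and Gel 3 had the least. Osteoclast markers summed to 11907, 8469.6 and 8512 CPM in Gel, against 9599, 2779 and 19088 CPM in MgPA-Gel. They were lowest in MgPA-Gel 2, as most subunits were, and highest in MgPA-Gel 3. Erythroid markers summed to 6021, 269 and 4717 CPM in Gel, against 8642, 1672 and 708 CPM in MgPA-Gel, high in Gel 1, Gel 3 and MgPA-Gel 1. Adipocyte markers summed to 274, 180.0 and 151 CPM in Gel, against 336, 141 and 285 CPM in MgPA-Gel. The sum was highest in MgPA-Gel 1 and lowest in MgPA-Gel 2, and Fabp4 and Cfd held most of it in every library. Of the 10 adipocyte markers 5 could be tested, and among these MgPA-Gel 1 was the highest library for 2 and MgPA-Gel 2 the lowest for 3. Ucp1, the uncoupling protein of brown fat, had 0 counts in all 6 libraries. Chondrocyte markers summed to 349, 151 and 554 CPM in Gel, against 331, 199 and 299 CPM in MgPA-Gel. Neutrophil markers summed to 216, 289 and 82.2 CPM in Gel, against 809, 2758 and 200.1 CPM in MgPA-Gel, with MgPA-Gel 2 highest and MgPA-Gel 1 next. Macrophage markers summed to 4007, 6529.5 and 2786 CPM in Gel, against 3345, 7566 and 3685 CPM in MgPA-Gel, of which Lyz2, the lysozyme also made by neutrophils, held 6188 CPM in MgPA-Gel 2. Without Lyz2, a choice made after its values were seen, they summed to 1389, 1372 and 1178 CPM in Gel, against 1136, 1378 and 1989 CPM in MgPA-Gel, highest in MgPA-Gel 3. Of all 10 macrophage markers 2, Csf1r and Cd68, were lowest in MgPA-Gel 2, and 4 were highest in that library.

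With the muscle level of each library as a covariate, 77 of the 82 subunits had a lower and 5 a higher fitted level in MgPA-Gel (median of the log2 fold changes -0.21), and 0 were called. That level, a centred mean of log2 CPM, was 5.17 in MgPA-Gel 1 and between -4.20 and 1.64 in the other libraries. The fit therefore cannot tell muscle content from other traits of MgPA-Gel 1. Removing the libraries at both ends of the muscle level, Gel 3 and MgPA-Gel 1, gave 73 lower and 9 higher (median -0.16). Removing both libraries of high mitochondrial share, Gel 1 and MgPA-Gel 1, gave a median of 0.030. For the covariate fit and the fits without these libraries, the directions of all genes are not given here. The counts of subunits are therefore not set against the whole table. The part of osteoclast, adipocyte, erythroid, chondrocyte or neutrophil content in the values of the subunits was not tested.

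**Figure D5:**
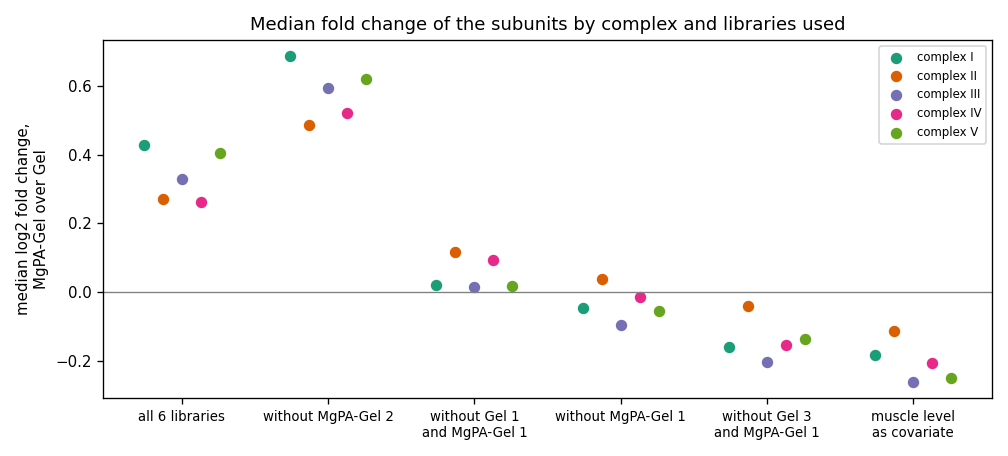
Median log2 fold change (MgPA-Gel over Gel) of the tested subunits of each complex in the fit of all 6 libraries, in fits that leave libraries out, and in a fit with the muscle level as a covariate. With all libraries the 5 medians lie between 0.26 and 0.43, and without MgPA-Gel 1 they lie between -0.095 and 0.037.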

How the data were processed

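Poly-T selected RNA from 6 femur samples was grouped by their titles into Gel and MgPA-Gel. The submitters' processing notes name StringTie 1.3.3b, HISAT2 2.0.5, fastp, edgeR 3.22.5, DESeq2 1.20.0 and featureCounts 1.5.0-p3, without roles. The genome build and the strandedness are not given in the sources used here, so overlapping and antisense genes cannot be told apart. The authors deposited whole-number counts for 34538 genes without normalization. They also deposited FPKM values, which by the values in the files are counts scaled by gene length and by 1 size per library. As rows with no gene, 11692 blank lines of the counts were left out, and 2 unnamed columns of group means were not used.

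The test was edgeR 4.0.16 in R 4.3.3 (on counts, filterByExpr, TMM, robust quasi-likelihood fit, two-sided), with Benjamini-Hochberg adjustment over all 14818 genes tested and a threshold of 0.05. CPM were computed with library sizes multiplied by TMM factors. The common dispersion was a coefficient of variation of 41.3% between libraries, which outweighs counting error for most members. Log2 ratios of the 3 muscle and general pairs used FPKM + 0.01, and log2 ratios of 1 library to the others used CPM + 0.1. Alternatives were DESeq2 1.42.0, its size factors, no filter, limma 3.58.1 on log2(FPKM + 1) and log2(FPKM + 0.1), removal of mitochondrial genes, protein-coding genes alone, a muscle covariate, libraries left out and a replicate block. The summing of near-identical copies was chosen after seeing the data. The fit was tested on simulated data.

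The members and lists were chosen with earlier results of these data known. Genes named were isoform pairs, core subunits, the 2 most abundant and the 2 of smallest p per complex, members whose groups do not overlap, and members without a test. Others, including Ndufa10, Ndufb6, Uqcrb, Uqcrc2, Atp5pb, Atp5mf, Cox17, Ckmt2, Lyz2, Csf1r, Cd68, Slc25a4, Slc25a5, Cycs, Esrra, Tfam, Hif1a and the copies, were chosen after their values were seen. Of the symbols of the other lists, 42 of 45 assembly factors, 13 of 14 citrate cycle enzymes and 25 of 30 muscle fibre genes were found. Promoters came from RefSeq (GRCr8), with 13 member names not matched.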

Additional observations from a re-analysis of the deposited data

How the results depend on the processing

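No subunit was called by edgeR in any fit, nor by DESeq2 or limma. The number of genes called over the whole table was 0 in edgeR with all libraries, 10 in DESeq2, and 0 to 2 with 1 library left out. The median log2 fold change of the subunits (0.37) was -0.21 with the muscle covariate, -0.16 without Gel 3 and MgPA-Gel 1, and -0.046 to 0.60 with 1 library left out, the lowest value without MgPA-Gel 1. The sign of the single log2 fold change differed in 73, 67 and 55 of 82 subunits under the covariate, without Gel 3 and MgPA-Gel 1, and without MgPA-Gel 1. Members whose groups did not overlap numbered 0 with all libraries, 6 without Gel 3 and MgPA-Gel 1 (31.6% of all genes), 3 without Gel 1 and MgPA-Gel 1 (27.9%), and 0 to 30 with 1 library left out. The 30, all higher, came without MgPA-Gel 2 (18.3% of all genes), where 24 subunits had an unadjusted p under 0.05 against 4.93% of genes. MgPA-Gel 2 was the lowest library in 63 of the 82 subunits, so its removal by itself raises their MgPA-Gel mean. The log2 ratio difference of Cox7a1 to Cox7a2 (-0.017) was 1.38 from counts, 3.23 without Gel 3 and MgPA-Gel 1, 0.31 without Gel 1 and MgPA-Gel 1, and -0.99 to 1.92 with 1 library left out. That of Cox8b to Cox8a (1.93) was -0.86 without Gel 3 and MgPA-Gel 1, -0.042 without Gel 1 and MgPA-Gel 1, and -0.33 to 3.99 with 1 library left out. That of Cox6a2 to Cox6a1 (3.57) stayed positive, at 1.64 to 5.27 with 1 library left out. The cause of these shifts was not tested. No label says that the numbers in the titles pair the samples, and correlations of so few libraries cannot settle it. Same-number deviations correlated at 0.25, 0.20 and -0.027. Gel 1 and Gel 2 correlated best with the MgPA-Gel library of the same number, and Gel 3 correlated better with MgPA-Gel 2 (0.059). With the replicate block the median was 0.29, and 0 subunits and 0 genes were called, with 464 genes at an unadjusted p under 0.05.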
